A study of Mus musculus with 9 samples.

Results

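The 10 genes of the growth hormone (GH), STAT5 and IGF1 axis followed in mouse liver were chosen by name, as the receptor Ghr, the kinase Jak2, the transcription factors Stat5a and Stat5b, the secreted products Igf1 and Igfals, the feedback inhibitors Socs2 and Cish, the repressor Bcl6 and the receptor Lifr. Earlier results of these data were known when they were chosen. All 10 genes had 1 probe set each, out of 22206 probe sets tested on the array and 19572 that carried a gene symbol. RNA from non-tumor liver was hybridised to 9 Clariom S arrays, which read the RNA of a gene by how brightly a small set of probes for it lights up, with 3 arrays in each of the groups HNK, MUP and WT. All mice were male C57BL/6 mice, were fed a high-fat diet from week 6 and were sampled at 40 weeks of age. Per the study, the sampled livers came from mice with liver tumors. It describes such tumors for MUP and HNK mice and gives no tumor result for the WT group. HNK mice were MUP-uPA transgenic mice given honokiol, a natural compound from magnolia bark, by intraperitoneal injection at 10 mg/kg, 3 times per week, between weeks 32 and 40. MUP mice were MUP-uPA transgenic mice whose labels give a control treatment, and WT mice were wild-type mice with the same control label, described by the study as littermates on vehicle. The MUP-uPA transgene drives urokinase-type plasminogen activator (uPA) in hepatocytes from the promoter of a major urinary protein gene. In male mouse liver the major urinary protein genes are themselves induced by GH, which bears on this strain as a model for the axis.

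GH from the pituitary binds its receptor on hepatocytes and activates the attached kinase JAK2, which phosphorylates STAT5. STAT5 enters the nucleus and switches on target genes, among them Igf1, the main source of circulating insulin-like growth factor 1, and Igfals, whose product holds IGF1 and its binding protein in a stable complex in blood. It also switches on Socs2 and Cish, which damp the same receptor. In mice, male and female secretion patterns of GH set many sex differences of liver gene expression through STAT5b, and loss of GH signalling in hepatocytes raises a set of lipid uptake and storage genes. All values below are log2 of the deposited normalized intensity. A difference of 1 is 2-fold, and levels of different probe sets were not set against each other, since each probe set has its own brightness.

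The 10 genes differed in how much they varied. Over the 9 arrays Ghr ranged over 0.49, and only 4.42% of all probe sets had a smaller range. Socs2 ranged over 3.46, Lifr over 3.33 and Igfals over 2.81, and 98.8%, 98.6% and 97.7% of probe sets varied less than they did. The other 6 genes lay between, with 20.9% of probe sets varying less than Stat5b and 94.0% less than Bcl6. Of the 10 genes, 3 rose in MUP livers over WT livers, namely Socs2, Lifr and Igfals, against a background of 1.44% of all probe sets called higher, and 0 fell, against 2.13% called lower. A gene was called when its adjusted p from limma was below 0.05 (Benjamini-Hochberg over all probe sets tested). The receptor, the kinase, both STAT5 genes, Igf1, Cish and Bcl6 were not called. The study had listed Socs2, Igfals and Lifr among genes higher in MUP on these same arrays, so these 3 calls are not independent evidence. In bulk liver, fewer cells of a type and less RNA per cell cannot be told apart.

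**Figure D1:**
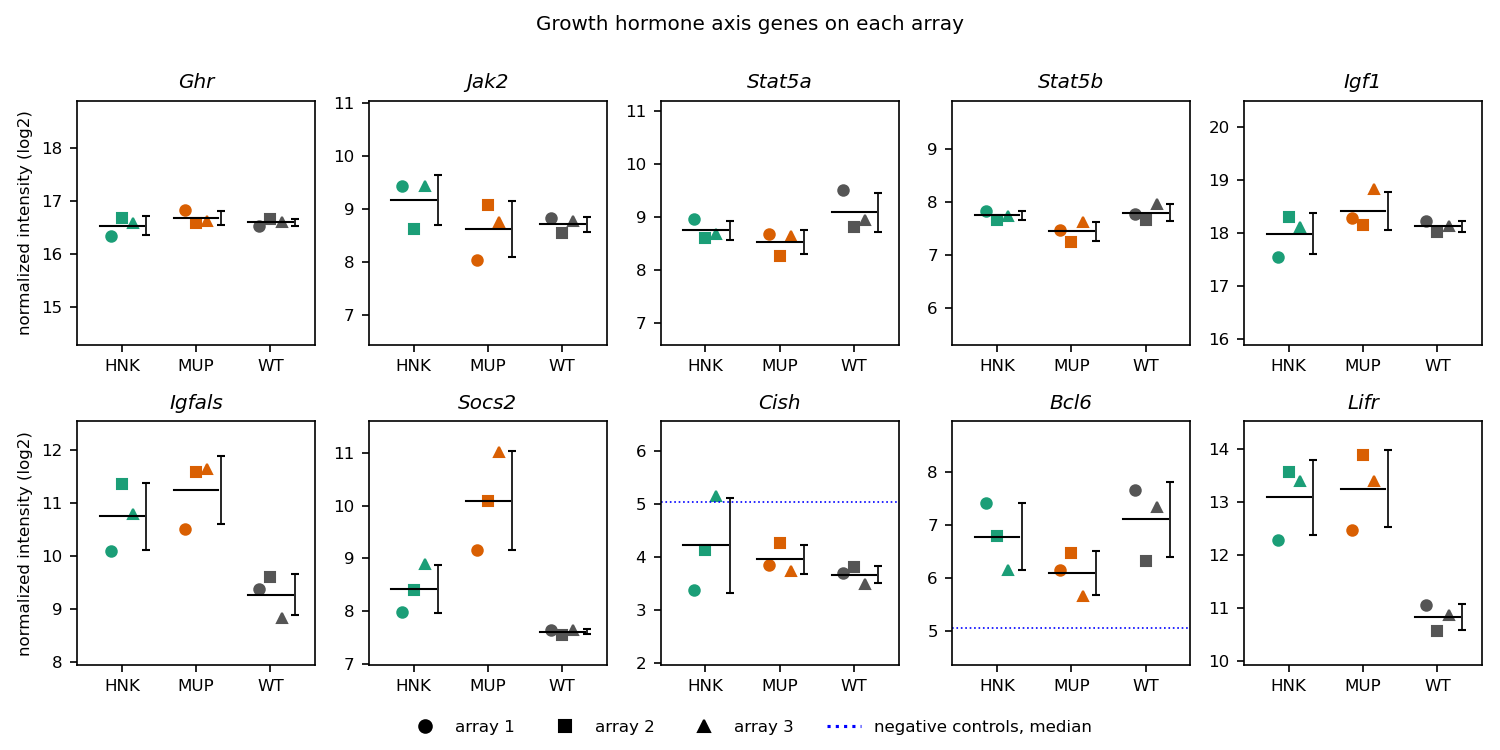
Each point is the log2 normalized intensity of 1 array (y axis, every panel of the same height in log2 units) for HNK, MUP and WT. Horizontal lines are group means, bars are ± 1 SD (n = 3), and the dotted line is the median of the negative control probes. Socs2, Igfals and Lifr separate MUP from WT, Ghr and Igf1 do not, and 8 of 9 Cish values lie below the controls.

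Some facts of the arrays bear on these genes. Medians over all probe sets were 5.52 to 5.62 and those of the negative control probes 4.91 to 5.10 on the 9 arrays. No pair of arrays held the same values (Pearson r 0.968 to 0.992 over 36 pairs). The hepatocyte marker list (9 measured genes, among them Alb and Apoa1) had a median of 19.45 to 19.60 on every array. The highest value of any probe set was 19.75 to 19.93, so the median and the brightest genes of this list had little room to rise. Dimmer genes of the list had more, such as Cps1 at 15.48 on WT 2 and 17.12 on MUP 3. The arrays MUP 2 and HNK 3 differed from the rest in 15 genes of skeletal muscle, whose median was 12.85 and 12.56 there, against 4.16 to 4.64 on the other 7 arrays. Plau, the mouse gene for uPA, was 5.81, 4.82 and 5.70 in HNK livers, 4.96, 5.29 and 3.67 in MUP livers and 5.52, 5.49 and 5.87 in WT livers. It was thus not higher on the transgenic arrays, but on MUP 1, MUP 3 and HNK 2 it did not exceed the negative control median. Per the study, uPA expression in these mice peaks in young animals, long before the age sampled here. The sources used here do not give which part of the transcript its probes read. Plau therefore does not settle the genotype. The names MUP and HNK therefore stand for the arrays so labelled, also in each direction below. The labels do not say whether the 3 arrays of a group are separate animals, while the legends count mice. The design text counts fewer mice than the 9 arrays listed. If they were not separate animals, the p-values would measure technical spread only.

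The receptor and its kinase were not called in any comparison. Ghr, which binds GH, read 16.35, 16.69 and 16.59 in HNK livers, 16.84, 16.59 and 16.64 in MUP livers and 16.54, 16.66 and 16.62 in WT livers. The 3 groups overlapped. MUP exceeded WT by 0.08 with a 95% interval of -0.24 to 0.40 (adjusted p = 0.835 from limma), and the difference of HNK from MUP was -0.14 (-0.47 to 0.18, adjusted p = 0.998 from limma). A 2-fold change of the Ghr intensity in either direction lies outside both intervals. Jak2, the kinase bound to the receptor, was 9.43, 8.63 and 9.44 in HNK livers, 8.03, 9.07 and 8.76 in MUP livers and 8.82, 8.53 and 8.76 in WT livers. Its difference of HNK from MUP was 0.55 (-0.11 to 1.20, adjusted p = 0.998 from limma), with overlapping groups, and MUP 1 was the lowest of all arrays.

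Both STAT5 genes were somewhat dimmer in MUP livers, without passing the test. Stat5a was 8.95, 8.60 and 8.68 in HNK livers, 8.68, 8.27 and 8.64 in MUP livers and 9.51, 8.82 and 8.94 in WT livers. Every MUP array lay below every WT array. The difference was -0.56 (SE 0.24), with an unadjusted p of 0.0364 and an adjusted p of 0.251 from limma. Stat5b, the form that carries most of the GH signal in mouse liver, was 7.83, 7.67 and 7.74 in HNK livers, 7.46, 7.25 and 7.62 in MUP livers and 7.78, 7.66 and 7.96 in WT livers. MUP lay below the other groups with no overlap, with a difference of -0.36 from WT (adjusted p = 0.41 from limma), and HNK exceeded MUP by 0.30 (-0.14 to 0.74, adjusted p = 0.998 from limma). For each of these separations the exact two-sided permutation test gave p = 0.1, the smallest that 3 arrays against 3 allow. Of all probe sets, 23.4% had MUP and WT groups that did not overlap, and 5 of the 10 axis genes did (Stat5a, Stat5b, Igfals, Socs2 and Lifr). Stat5a and Stat5b are closely related genes that lie side by side on chromosome 11, and the probe sequences are not given, so that their probe sets may share signal.

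The secreted products of the axis did not move alike. Igf1 was 17.56, 18.30 and 18.12 in HNK livers, 18.29, 18.15 and 18.84 in MUP livers and 18.23, 18.02 and 18.14 in WT livers. The groups overlapped, with the highest value in MUP 3 and the lowest in HNK 1. MUP exceeded WT by 0.29 (-0.18 to 0.77, adjusted p = 0.542 from limma), and HNK differed from MUP by -0.43 (-0.91 to 0.04, unadjusted p = 0.0694, adjusted p = 0.998 from limma). A 2-fold change of the Igf1 intensity lies outside each of these intervals. Igf1 read near the top of the scale, where the highest values of the arrays were 19.75 to 19.93. Whether intensity still follows RNA amount there was not tested. Igfals, the acid-labile subunit of the circulating IGF complex, was 10.10, 11.36 and 10.80 in HNK livers, 10.51, 11.59 and 11.65 in MUP livers and 9.38, 9.60 and 8.84 in WT livers. Every transgenic array exceeded every WT array.

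Igfals rose in MUP livers by 1.98 over WT livers (SE 0.37, 3.95-fold, adjusted p = 0.0134 from limma). The HNK mean was 1.48 above WT (SE 0.37, adjusted p = 0.064 from limma), which missed the threshold, and 0.50 below MUP (-1.30 to 0.30 as HNK minus MUP, adjusted p = 0.998 from limma). The order was MUP, HNK, WT, and MUP and HNK did not differ beyond their spread. Leaving out WT 1, WT 3 or MUP 3 ended the Igfals call in MUP (adjusted p = 0.0557, 0.0722 and 0.0602 from limma), while that of HNK against WT was gained without HNK 1 or MUP 1 (adjusted p = 0.0383 and 0.0381 from limma).

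Socs2 separated the 3 groups most clearly. This feedback inhibitor, which binds the GH receptor and whose loss in mice gives gigantism, read 7.99, 8.41 and 8.90 in HNK livers, 9.15, 10.09 and 11.02 in MUP livers and 7.64, 7.56 and 7.64 in WT livers. No group overlapped another, and the WT arrays lay within 0.08 of each other while the MUP arrays spread over almost 2 units. Socs2 rose by 2.47 in MUP livers over WT livers (SE 0.39, 5.56-fold, adjusted p = 0.00597 from limma). HNK lay 1.66 below MUP (-2.51 to -0.80 as HNK minus MUP, unadjusted p = 0.00119), but after adjustment over all probe sets the p was 0.914 from limma. HNK lay 0.82 above WT (-0.03 to 1.67, adjusted p = 0.381 from limma). The order was MUP, HNK, WT, with only the step between MUP and WT past the threshold. The study also selected Socs2, from this same data, as a gene up in MUP and down after HNK, so its place between MUP and WT in HNK livers is a description.

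Cish, the other feedback inhibitor of the family, could not be read. It was 3.37, 4.14 and 5.16 in HNK livers, 3.86, 4.27 and 3.74 in MUP livers and 3.70, 3.81 and 3.50 in WT livers. On 8 of 9 arrays the value did not exceed the negative control median, and only HNK 3 was above it. No change is read from it.

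Bcl6, a repressor that holds down female-type genes in male mouse liver and is itself lowered by GH through STAT5, was 7.40, 6.78 and 6.14 in HNK livers, 6.14, 6.47 and 5.65 in MUP livers and 7.65, 6.31 and 7.33 in WT livers. WT 2 lay among the MUP values, so the groups overlapped. The MUP mean was lower, with a log2 fold change of -1.01 (SE 0.39), with an unadjusted p of 0.025 and an adjusted p of 0.21 from limma. HNK exceeded MUP by 0.69 (-0.17 to 1.55, adjusted p = 0.998 from limma).

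Lifr, the receptor subunit for leukemia inhibitory factor that pairs with gp130, was 12.28, 13.57 and 13.40 in HNK livers, 12.47, 13.88 and 13.40 in MUP livers and 11.05, 10.56 and 10.86 in WT livers. The HNK and MUP values interleaved, and all 6 lay more than 1 unit above the WT values. Lifr rose by 2.43 in MUP livers over WT livers (SE 0.38, 5.38-fold, adjusted p = 0.00571 from limma) and by 2.26 in HNK livers over WT livers (SE 0.38, 4.79-fold, adjusted p = 0.0127 from limma). HNK and MUP differed by -0.17 (-0.99 to 0.66). The call in HNK was lost without WT 2 or WT 3 (adjusted p = 0.0526 and 0.0591 from limma).

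**Figure D2:**
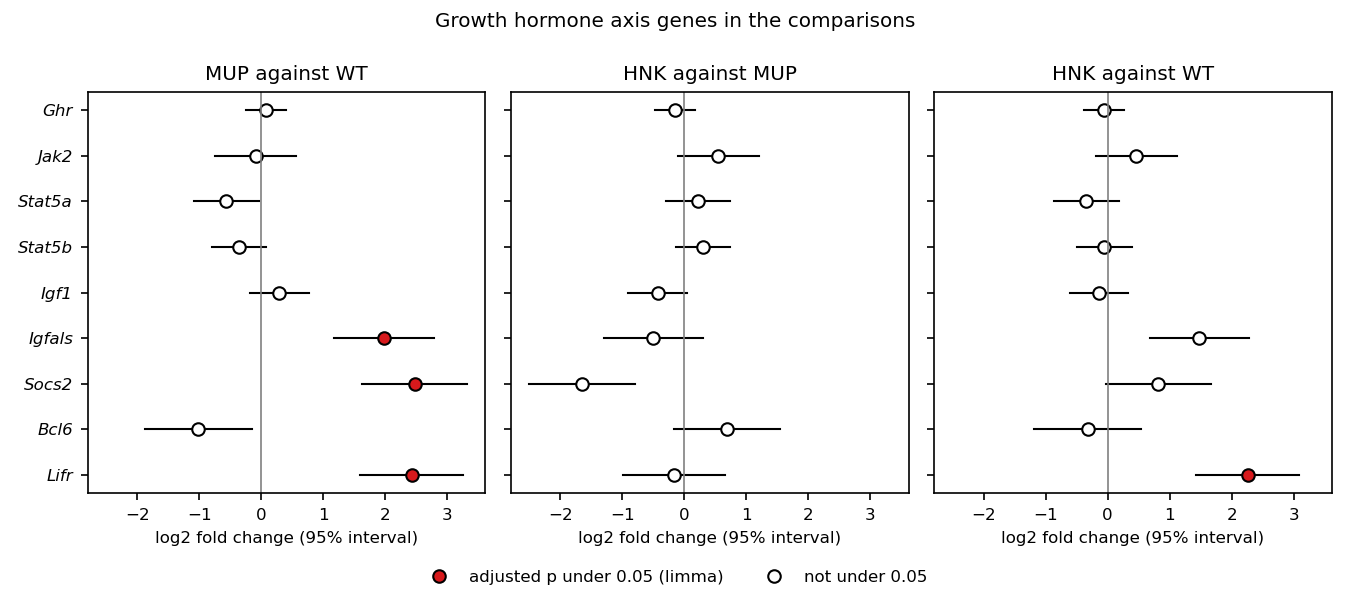
Log2 fold changes (x axis, points) with 95% intervals (lines) from limma for the axis genes read above the controls, in each comparison. Filled points passed an adjusted p of 0.05: Igfals, Socs2 and Lifr in MUP against WT, and Lifr in HNK against WT. Cish is left out.

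Between HNK and MUP, 0 of the 10 genes were called higher and 0 lower, against 0.0045% and 0% of all probe sets, which is 1 probe set in all, so the background gives almost no calls to compare with. At an unadjusted p under 0.05 from limma, 0 of the 10 were higher and 1 was lower in HNK, namely Socs2. Over all 22206 probe sets, 463 were higher and 505 lower at that threshold. The methods' t-test at the same threshold gave 0 of the 10, against 896 of all probe sets. Groups did not overlap for 2 of the 10 (Socs2 and Stat5b), against 8.59% of all probe sets. Between HNK and WT, 1 of the 10 was called higher, Lifr, against 0.964% of all probe sets, and 0 lower, against 1.33%. There 3 of the 10 had groups that did not overlap (Igfals, Socs2 and Lifr), against 20.5%. The median log2 fold change of the 10 genes, Cish included, was 0.19 in MUP against WT, 0.04 in HNK against MUP and 0.20 in HNK against WT, beside medians of 0.0040, -0.0099 and -0.0055 over all probe sets. The comparisons share arrays, so these are not separate observations.

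Without MUP 2 and HNK 3, the arrays high in muscle genes, the 3 calls in MUP against WT held. Socs2 was then 2.47 (adjusted p = 0.0152), Lifr 2.11 (adjusted p = 0.0163) and Igfals 1.81 (adjusted p = 0.0456, all from limma). Lifr in HNK against WT was 2.10 (adjusted p = 0.0224 from limma), and Socs2 in HNK against MUP was -1.89 (adjusted p = 0.689 from limma). The methods' t-test, adjusted over all probe sets, called none of the 10 genes in any comparison (lowest adjusted p 0.166 in MUP against WT, for Lifr). At an unadjusted p under 0.05 it gave 3 of the 10 in MUP against WT, 0 in HNK against MUP and 3 in HNK against WT. Of all 22206 probe sets it gave 3247, 896 and 2789 in the same order.

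Sequences before the start site are shown for the 2 of these genes whose windows held the core letters that STAT5 is known to bind, TTCNNNGAA, which reads the same on both strands. The windows were the 250 bases before each RefSeq start (GRCm38.p6). The letters occurred in windows of 2 of the 9 axis genes that had one, Igfals and Bcl6, against 8.13% of 27025 genes. A gene counted when any of its windows held the letters. Genes with several windows, as Igfals and Bcl6 had, thus had more chances to match. Igfals, which rose in MUP, and Bcl6, which had the lower mean there, both held the letters, and the other 7 genes, Lifr among them, did not. Socs2 had no window in the table used. The whole window of Igfals is given because Igfals is the called gene with a match, and capitals mark the 9 letters, centred 232 bases before the start.

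Igfals, chr17:24877594-24877843 (+): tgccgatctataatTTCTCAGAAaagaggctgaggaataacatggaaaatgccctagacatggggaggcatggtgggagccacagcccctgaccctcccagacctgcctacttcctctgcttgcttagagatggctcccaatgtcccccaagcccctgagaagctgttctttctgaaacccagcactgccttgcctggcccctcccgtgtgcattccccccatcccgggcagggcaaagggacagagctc

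A further start of Igfals had another match centred 54 bases before it. Bcl6 held 1 match before its most upstream start, centred 114 bases before it, and 3 matches within a single window of a further start, at 164, 118 and 84 bases. Igfals and Bcl6 shared the same 9 letters in their upstream windows. The stretches below hold each match in capitals with 10 bases on either side.

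Igfals, chr17:24878163-24878191 (+): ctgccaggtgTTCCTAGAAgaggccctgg

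Bcl6, chr16:23988952-23988980 (-): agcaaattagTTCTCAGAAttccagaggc

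Bcl6, chr16:23981433-23981461 (-): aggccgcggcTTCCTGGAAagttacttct

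Bcl6, chr16:23981387-23981415 (-): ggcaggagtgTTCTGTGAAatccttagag

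Bcl6, chr16:23981353-23981381 (-): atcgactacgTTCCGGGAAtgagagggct

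A match of letters says nothing on binding, which was not measured.

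Other genes around the axis were described from lists, which were written with earlier results of these data known. Of all probe sets, 1.44% were called higher and 2.13% lower in MUP against WT, and 0.964% and 1.33% in HNK against WT. At an unadjusted p under 0.05 from limma, 1736 of all 22206 probe sets were higher and 2115 lower in MUP against WT. These numbers were 463 and 505 in HNK against MUP, and 1349 and 1782 in HNK against WT. Among the receptors and ligands (7 measured of 8), the insulin receptor Insr was the 1 gene called. It was 13.61, 13.62 and 13.53 in HNK livers, 13.71, 13.26 and 13.85 in MUP livers and 12.48, 12.85 and 12.83 in WT livers, with no overlap between WT and the others. Insr rose by 0.89 in MUP (adjusted p = 0.0289 from limma) and by 0.86 in HNK (adjusted p = 0.0411 from limma) over WT. The call was lost in MUP without WT 1, WT 2, WT 3, MUP 1 or MUP 3, and in HNK without any single WT or HNK array. Gh, the hormone itself, its releasing hormone receptor Ghrhr, the ghrelin receptor Ghsr and the IGF1 receptor Igf1r were below the negative controls on all arrays.

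Of 11 IGF-binding proteins and their regulators, Igfbp2, whose product binds IGF in blood, rose most. It was 14.37, 14.84 and 14.64 in HNK livers, 15.14, 15.90 and 14.52 in MUP livers and 12.31, 12.81 and 11.58 in WT livers, and the transgenic arrays were all above WT. The rise over WT was 2.96 in MUP (SE 0.35, 7.76-fold, adjusted p = 0.00157 from limma) and 2.39 in HNK (5.23-fold, adjusted p = 0.00621 from limma). Igfbp1, the binding protein that falls with insulin, was 8.11, 7.52 and 6.56 in HNK livers, 9.35, 6.28 and 9.40 in MUP livers and 9.80, 10.90 and 11.28 in WT livers. It fell in HNK livers against WT by 3.26 (SE 0.73, adjusted p = 0.0402 from limma), and that call was lost without WT 1, WT 2, WT 3, HNK 1, HNK 2 or HNK 3. The MUP arrays spread over 3 units, with MUP 2 the lowest. Igfbp7 had a mean 0.91 lower in MUP than in WT (adjusted p = 0.0508 from limma). Igfbp2, like Socs2, stands in the study's own list of genes higher in MUP.

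Signalling genes downstream gave few calls. Of 16 measured JAK, STAT, adaptor and phosphatase genes, 0 were called in any comparison by limma, and 2 had an unadjusted p under 0.05 in MUP against WT, 2 in HNK against MUP and 1 in HNK against WT. The smallest p in MUP against WT belonged to Ptpn11, the phosphatase SHP2, at 0.85 (adjusted p = 0.0705 from limma), and to Ptpn6, the phosphatase SHP1 of blood cells, at -0.94 (adjusted p = 0.108 from limma). In MUP against WT, 1 gene of this list was called lower with the replicate block. With array weights or without the dimmest 40% of probe sets, 1 was called higher and 0 lower. Of 8 other SOCS and PIAS genes 0 were called in any comparison, with 2 at an unadjusted p under 0.05 in MUP against WT, 2 in HNK against MUP and 0 in HNK against WT. In MUP against WT, 1 gene of this list was called lower without MUP 2, without MUP 2 and HNK 3, or with the replicate block. Socs6 had a log2 fold change of -1.24 in MUP (adjusted p = 0.131 from limma), and Socs3, the inhibitor that IL-6 induces, was below the controls on all arrays. Of 8 genes of the LIF and IL-6 receptor family, Il6ra, the IL-6 receptor, was the only 1 called in MUP against WT, at 1.56 (SE 0.38, adjusted p = 0.0468 from limma). Its call was lost in 7 of the 9 fits that left out 1 array. Il6st, which encodes gp130, the partner of LIFR, was 11.81, 12.18 and 12.38 in HNK livers, 12.72, 12.11 and 13.09 in MUP livers and 12.77, 13.05 and 12.80 in WT livers, and it was not called in HNK against WT (-0.75, adjusted p = 0.171 from limma).

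Male-biased genes depend, in male mice, on pulses of GH and on STAT5b. Of 19 measured, 8 were called higher and 0 lower in MUP against WT, and 18 had a higher mean, with a median log2 fold change of 1.55. Of all 22206 probe sets, 11204 had a higher mean there. Since the list was written with earlier results known, these counts are a description. For HNK against WT 6 were called higher and 0 lower (median 1.38), and in HNK against MUP 0 were called and 1 had an unadjusted p under 0.05 (median -0.31, with 14 of 19 means lower). The organic anion transporter Slco1a1 was 10.56, 14.24 and 12.69 in HNK livers, 12.13, 14.77 and 14.25 in MUP livers and 8.70, 8.06 and 6.84 in WT livers. It rose by 5.85 in MUP (SE 0.86, adjusted p = 0.00416 from limma) and by 4.63 in HNK (adjusted p = 0.0182 from limma) over WT. HNK 1 and MUP 1 were the lowest arrays of their groups.

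The fatty acid hydroxylase gene Cyp4a12b rose by 3.95 in MUP (SE 0.30, 15.5-fold, adjusted p = 9.84e-05 from limma) and by 3.64 in HNK. The complement gene C8b rose by 3.61 in MUP and by 2.80 in HNK. Egfr, the epidermal growth factor receptor, was 9.22, 11.37 and 10.75 in HNK livers, 10.73, 12.08 and 12.87 in MUP livers and 9.02, 8.53 and 9.42 in WT livers. It rose by 2.90 in MUP over WT (SE 0.57, adjusted p = 0.0169 from limma), and it too is a gene the study selected on these arrays. Nudt7, Cyp4a12a, Gstp1 and Cyp2d9 were also called, at 2.50, 1.68, 1.56 and 1.55 in MUP against WT. Several of these genes have near-identical copies (Cyp4a12a and Cyp4a12b, Gstp1, Cyp2d9, Cyp2a4 and Cyp2b9), whose probe sets may share signal. The count of called male-biased genes in MUP against WT was 6 without MUP 2 and HNK 3, and 5 without WT 1 or WT 2. For HNK against WT it was 4 without MUP 2 and HNK 3, and 3 without WT 1, WT 2, WT 3 or HNK 3.

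Female-biased genes went both ways. Of 22 measured, 3 were called higher and 2 lower in MUP against WT (median -0.34), 1 higher and 0 lower in HNK against WT (median -0.30), and 0 in HNK against MUP (median 0.26, with 2 at an unadjusted p under 0.05). Cyp2a4, a steroid hydroxylase, was 16.15, 14.31 and 14.10 in HNK livers, 13.48, 14.14 and 14.48 in MUP livers and 11.08, 11.35 and 11.15 in WT livers. It rose by 2.84 in MUP and by 3.66 in HNK over WT (adjusted p = 0.00555 and 0.00204 from limma). Slc22a26, a transporter of the organic ion family, and Fmo2, a monooxygenase, rose in MUP by 1.55 and 1.44. Slc22a26 is also in the study's selected set. Cyp2b9, a P450 of female liver, fell by 2.53 in MUP against WT and Atp6v0d2, a proton pump subunit, fell by 1.52 (adjusted p = 0.0161 and 0.0263 from limma). The count of called female-biased genes in MUP against WT was 3 without WT 1, MUP 1 or MUP 3 and 2 without WT 3.

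A further list held lipid genes that rise in mouse liver when GH signalling is lost. Of 10 measured, 4 were called lower and 0 higher in MUP against WT (median -1.47), and 3 lower and 0 higher in HNK against WT (median -1.26). Cidea, a lipid droplet gene, was 7.87, 6.31 and 7.04 in HNK livers, 7.88, 6.15 and 7.59 in MUP livers and 12.12, 12.61 and 11.55 in WT livers. The transgenic arrays lay more than 3 units below WT. Cidea fell by 4.88 in MUP (29.5-fold lower, adjusted p = 0.000499 from limma) and by 5.02 in HNK (adjusted p = 0.000473 from limma) against WT.

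Pparg, the nuclear receptor for fatty acids, was 9.56, 8.66 and 9.05 in HNK livers, 8.71, 7.66 and 8.50 in MUP livers and 10.65, 10.68 and 10.18 in WT livers, and fell by 2.21 in MUP and by 1.41 in HNK. Cd36, the fatty acid transporter, fell by 1.49 in MUP and by 1.11 in HNK, and Mogat1, which makes diacylglycerol, fell by 2.07 in MUP (adjusted p = 0.0283 from limma). Fasn, the fatty acid synthase, and Vldlr, a lipoprotein receptor, had higher means in MUP than in WT, at 0.58 and 0.14 (adjusted p = 0.764 and 0.872 from limma). HNK against MUP gave 0 calls here, with Pparg 0.80 higher in HNK (unadjusted p = 0.025, adjusted p = 0.998 from limma). The count in HNK against WT was 1 without WT 1, WT 3 or HNK 3 and 5 without HNK 1.

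Of 11 liver transcription factors that work beside STAT5, 0 were called by limma, and 2 in MUP against WT, 3 in HNK against MUP and 3 in HNK against WT had an unadjusted p under 0.05. In MUP against WT, 1 gene of this list was called in 10 of the 18 alternatives. Onecut1, known as HNF6, was 8.56, 10.39 and 11.41 in HNK livers, 9.23, 11.38 and 10.51 in MUP livers and 7.83, 8.31 and 6.91 in WT livers, with a MUP mean 2.69 above WT (adjusted p = 0.0508 from limma). Nr0b2, the bile acid repressor SHP, had a log2 fold change of -1.66 in HNK against MUP (unadjusted p = 0.00105, adjusted p = 0.914 from limma).

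**Figure D3:**
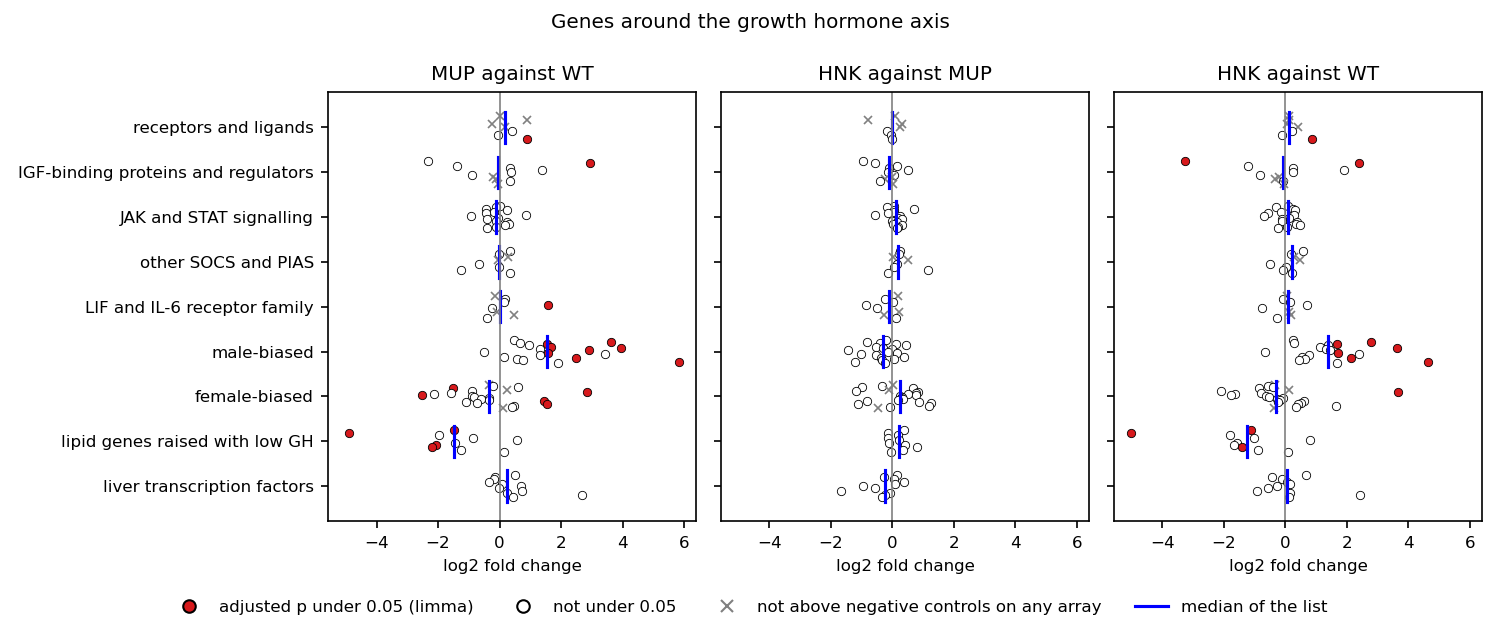
Log2 fold change (x axis) of each measured gene in 9 lists around the axis, in each comparison, with the list median as a blue line. Filled points passed an adjusted p of 0.05 from limma, and crosses are genes not above the negative controls on any array. The male-biased median is 1.55 in MUP against WT and 1.38 in HNK against WT, and no point is filled in HNK against MUP.

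Clock genes, which follow the time of day, differed between groups. Of 15 measured, 6 were called higher and 2 lower in MUP against WT. Dbp, a clock output gene, rose by 4.37 and Ciart by 4.13, while the activator Arntl fell by 2.65. Also 4 were called higher and 2 lower in HNK against WT, with Dbp at 4.35 and Arntl at -3.08. In MUP against WT 5 of the list were called without WT 1 or WT 3, and in HNK against WT 3 without WT 1 and 2 without WT 3. The list median was 6.87 to 7.96 in HNK livers, 8.13 to 8.30 in MUP livers and 6.60 to 7.05 in WT livers. It mixes genes that rose with genes that fell, while Dbp and Arntl differed from WT about as much in HNK as in MUP. The sources used here give neither the time of day nor the feeding state at sampling, and the part of either in the values of Socs2, Igfals and Lifr was not tested.

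Kupffer cell and macrophage genes (9 measured) had list medians of 8.44 to 10.69 in HNK livers, 9.15 to 10.73 in MUP livers and 10.90 to 13.11 in WT livers. Adgre1 was called lower in MUP than in WT, at -1.95, and 9 of 9 means were lower. The count was 0 without WT 1, WT 2, WT 3, MUP 2 or MUP 3, and without MUP 2 and HNK 3, 3 without HNK 2 and 6 with the replicate block. In HNK against WT, Vsig4 and Adgre1 were called lower, at -3.03 and -1.97, and the count was 0 without WT 1, WT 2, WT 3, MUP 3 or HNK 2, 1 without MUP 1, HNK 1 or HNK 3, 3 without MUP 2 and HNK 3, and 6 with the replicate block. Endothelial genes (8 measured) had medians of 7.97 to 8.92 in HNK livers, 8.21 to 9.90 in MUP livers and 9.83 to 10.09 in WT livers, with 8 of 8 means lower in MUP than in WT and 3 called lower in HNK against WT. That count was 0 without WT 1, WT 2 or HNK 2, 1 without WT 3 or HNK 3, and 5 with array weights, and in MUP against WT 0 were called, but 1 without MUP 1 or HNK 2. Of 5 cholangiocyte genes Epcam was called in HNK against WT at 1.27, and of 9 lymphocyte genes Cd4 was called there at 1.56. Epcam exceeded the negative control median only on HNK 1 and HNK 2, at 5.12 and 5.46, so the size of its rise is not read. The Epcam call was lost without WT 3 or without the dimmest 40% of probe sets. The Cd4 call was lost without WT 1, WT 3 or HNK 3 and without MUP 2 and HNK 3. Of 9 stellate cell and 4 adipocyte genes 0 were called by limma in any comparison, with 3 stellate cell genes at an unadjusted p under 0.05 in MUP against WT, where 1 was called lower without MUP 2 and HNK 3. Of the 15 skeletal muscle genes 0 were called, and 0 had an unadjusted p under 0.05 in any comparison. Of the 9 hepatocyte genes Cps1, a urea cycle enzyme, was called in MUP at 1.24 and in HNK at 0.94 over WT. It was lost in MUP without WT 1, and in HNK without WT 1, WT 2, WT 3, MUP 1, MUP 3, HNK 2 or HNK 3 and without MUP 2 and HNK 3. None of these lists includes a gene of the axis, and their part in the axis genes' values was not tested.

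In each transgenic group 1 array was low in several of these genes. MUP 1 and HNK 1 were the lowest arrays of their groups for Socs2, Igfals and Lifr, and also for the median of the male-biased list, at 11.72 in HNK 1 and 12.13 in MUP 1, against 13.07 to 13.46 on the other HNK arrays and 12.87 to 13.57 on the other MUP arrays. The WT arrays read 10.86 to 11.27. The clock median did not follow this order, since MUP 1 read 8.30 there, close to the other MUP arrays, and HNK 3 was the lowest HNK array. That median mixes genes that rose with genes that fell, so it does not give the time of day. Within the list Nr1d2, Bhlhe41 and Per3 were lowest on MUP 1 and HNK 1 of their groups, and the other clock genes were not lowest on both. The part of the clock in this order was not tested. The skeletal muscle median was high on MUP 2 and HNK 3 only.

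**Figure D4:**
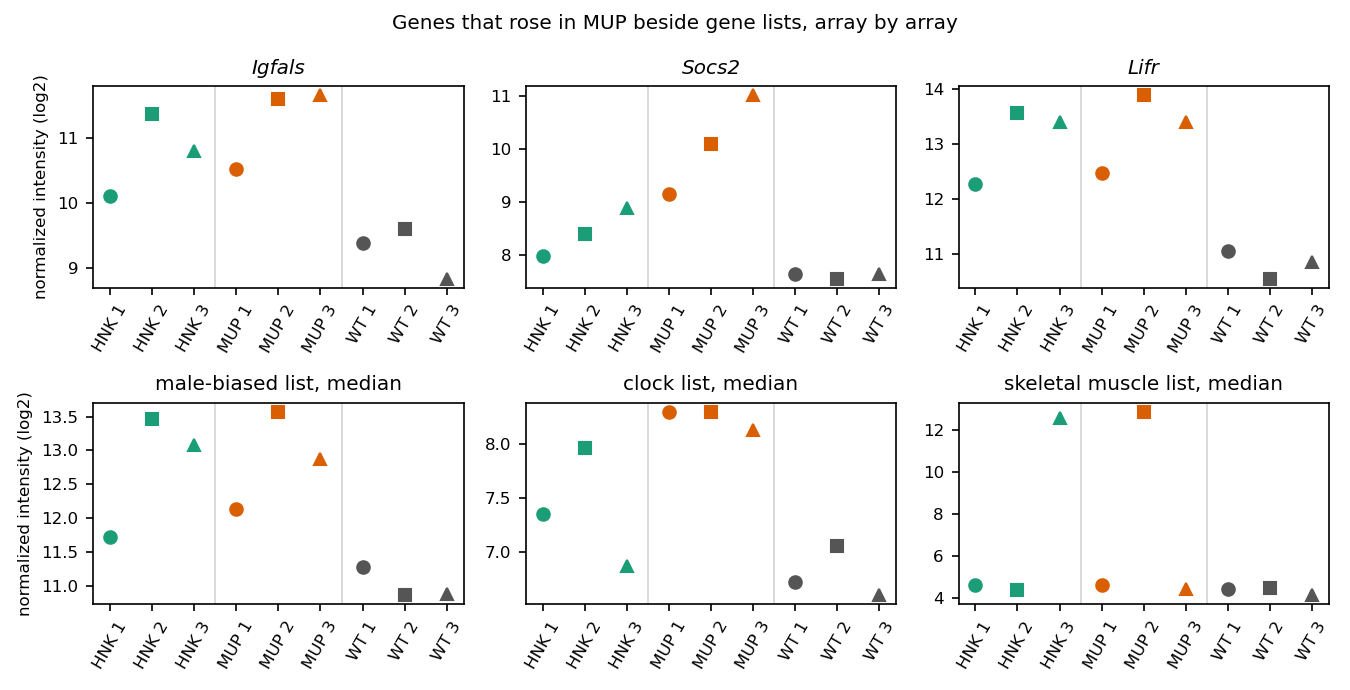
Log2 normalized intensity (y axes, own range per panel) on each of the 9 arrays (x axis) of Igfals, Socs2, Lifr and the medians of the male-biased, clock and skeletal muscle lists. HNK 1 and MUP 1 are the lowest arrays of their groups in the first 4 panels, and only MUP 2 and HNK 3 are high in the muscle panel.

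The genes whose pattern was most like Igf1, Socs2 and Cish over the 9 arrays were found among probe sets with 1 symbol, a mean of at least 7 and a range of at least 1 (3722 or 3723 compared). These are descriptions over 9 arrays that share their groups. For Socs2 they were Raph1 (Pearson r 0.97), the female-biased Fmo2 (0.96), the methionine aminopeptidase gene Metap2 (0.94) and Egfr (0.93). For Igf1 they were the P450 gene Cyp3a13 (0.90), the fumarase gene Fh1 (0.86), Smoc1 (0.86) and the splicing factor U2af1 (0.86). Cyp3a13 was highest in MUP 3, as Igf1 was, at 14.64 against 12.78 to 13.51 on the other 8 arrays. For Cish they were Bzw2 (0.95), the sphingosine phosphate receptor S1pr1 (0.95), Tagap1 (0.91) and Phlda1 (0.89), and all 4 were highest in HNK 3. That is the only array where Cish passed the controls, and it is 1 of the 2 arrays high in skeletal muscle genes. Cish could not be read on the other 8 arrays, so nothing is drawn from this likeness.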

How the data were processed

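The authors deposited 1 table of normalized intensity values on a linear scale, whose processing notes name RMA and Affymetrix Expression Console, without versions in the sources used here. The table held 28846 rows for 9 arrays. After log2, the 6640 control rows were removed, which left 22206 probe sets to test, 19572 of them with 1 gene symbol from the platform annotation, 0 with several and 2634 with none. All 10 axis genes kept their symbol when looked up by gene ID in RefSeq.

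All 9 arrays entered 1 linear model, from which each pair of groups was compared (limma 3.58.1, lmFit and eBayes with a variance trend, R 4.3.3, 6 residual and 5.83 prior degrees of freedom), two-sided, adjusted by Benjamini-Hochberg. Single genes were also tested by an exact permutation of 3 arrays against 3. Data were simulated with independent noise, and 67 probe sets were changed by 1, 67 by 2 and 66 by 3 on the log2 scale. So many large changes ease the adjusted threshold. The HNK against MUP data gave 1 call in all, so the simulated shares overstate what could be called there. In the simulation the model recovered 85.1% of probe sets changed by 2 for MUP against WT and 79.1% for HNK against MUP. For a change of 1 it recovered only 25.4% and 31.3%, so most changes of that size would be missed. Arrays give no counts, so their number limits the precision.

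The axis genes and the 18 gene lists (195 genes measured of 210) were chosen with earlier results of these data known. Named are all axis genes, called list genes by size, up to 4 per direction and comparison, otherwise those with the smallest p, and the 4 genes most like Igf1, Socs2 and Cish. Alternatives were a fit of only the 2 groups compared, a block for the replicate number, array weights (statmod 1.5.0), leaving out the dimmest 40% of probe sets, cyclic loess, median centring, no variance trend, the methods' t-test, leaving out MUP 2 and HNK 3, and leaving out each array. Promoter windows came from RefSeq (GRCm38.p6), while no build is given for the array values.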

Additional observations from a re-analysis of the deposited data

How the results depend on the processing

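In MUP against WT, 3 axis genes were called, 2 to 3 when 1 array was left out, and 0 with the methods' t-test. In HNK against WT, 1 was called, against 2 with the replicate block, 2 with array weights, 2 with cyclic loess, 0 with the methods' t-test and 0 to 2 when 1 array was left out. The second call was Igfals (adjusted p = 0.0304 with the block, 0.0375 with weights and 0.0445 with cyclic loess, from limma). In HNK against MUP the count was 0 in all 18 alternatives. Directions turned only among genes that were not called. When 1 array was left out, Jak2 in MUP against WT ranged between -0.31 and 0.21, and Lifr in HNK against MUP between -0.56 and 0.23. In HNK against WT Ghr ranged between -0.14 and 0.034, Stat5b between -0.13 and 0.026 and Igf1 between -0.29 and 0.080. Cish, not above the negative controls on 8 of 9 arrays, has no readable direction. Its difference of HNK from MUP was -0.20 to 0.69 when 1 array was left out and -0.045 without MUP 2 and HNK 3. The cause was not tested in any of these cases.

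Over all probe sets, 320 were called higher and 474 lower in MUP against WT, against 109 to 359 and 146 to 559 when 1 array was left out, up to 481 and 634 with array weights, and 0 and 0 with the methods' t-test. In HNK against WT 214 were higher and 295 lower, against 52 to 243 and 62 to 322 when 1 array was left out and up to 299 and 442 with array weights. List counts moved as well. The male-biased count in MUP against WT was 8, against 5 to 9 when 1 array was left out, the female-biased 5, against 2 to 5, the lipid genes 4, against 3 to 4, and the clock genes 8, against 5 to 8, and each was 0 with the methods' t-test. The IGF-binding proteins gave 1, and 3 with the block, array weights or the dimmest probe sets left out. No source used here says that the replicate numbers pair the arrays, and the few correlations that follow cannot settle it. Deviations of same-numbered arrays correlated at -0.06, -0.00 and 0.05 in MUP against WT, 0.40, -0.16 and -0.29 in HNK against MUP, and 0.03, 0.13 and 0.05 in HNK against WT. With the number as a block, 342 were called higher and 525 lower in MUP against WT, and among the axis genes the block changed no call but that of Igfals in HNK against WT. Leaving out the dimmest probe sets removed Cish, and each axis gene had 1 probe set, so the alternative of a second probe set gave no value. The number of arrays limits the precision, and the 95% intervals of Stat5a, Stat5b and Igf1 were about 1 unit wide.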
